A study of Homo sapiens with 20 samples.

Results

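HepaRG cells that had been differentiated with DMSO and then kept without it for 4 days (D34 ± DMSO) were compared with HepaRG progenitors (D4), over all genes. Both are cultures of one human hepatoma line. The arrays measured RNA, and how many cells divided was not measured on them. The comparison asks which hepatocyte genes were still expressed after removal and which genes of the progenitor stayed low. The D4 cultures were collected on day 4 after seeding and never received DMSO. The D34 ± DMSO cultures grew without DMSO to day 15, received 2% DMSO to day 30 and were collected on day 34, after 4 days without it. The D30 + DMSO cultures, which were collected at the end of the DMSO period, are the state from which the D34 ± DMSO cells came. All cultures shared the same serum-containing medium with insulin and hydrocortisone. The series holds 20 one-color arrays, 4 of each of 5 conditions, and the comparison rests on 8 of them, 4 of D4 and 4 of D34 ± DMSO. The series describes 4 independent experiments, all of a single cell line, and whether a replicate number marks the same experiment in each condition is not stated.

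HepaRG progenitors are bipotent: at low density they divide, and at confluence they give rise to hepatocyte-like and biliary-like cells. DMSO is used in these cultures because it slows division and raises the liver functions of the hepatocyte-like cells. A liver cell that divides has to run the replication and mitosis genes. E2F factors switch these on at the entry into S phase, and the MuvB complex with FOXM1 and MYBL2 does so in G2 and M. The hepatocyte programme rests on another set of factors, among them HNF4A, CEBPA, FOXA proteins and the nuclear receptors PXR (NR1I2), CAR (NR1I3) and FXR (NR1H4). Progenitors in sparse culture typically express a further group, of contractile actin genes, targets of YAP and SRF, and matrix proteins. Preset hepatocyte and biliary markers such as ALB, TTR, APOA1, KRT7 and KRT19 stood above the 75th percentile on all D4 and D34 ± DMSO arrays. Some others did not: at D4, CYP3A4, TDO2 and SOX9 lay below that percentile on every array, and ARG1 and HNF4A were at background. In RNA from a whole culture, fewer cells that express a gene and less RNA of it per cell cannot be told apart.

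Promoters of genes from these 3 groups are shown first, because each group is known for a sequence element. The 250 bases before the transcription start were searched on both strands in RefSeq promoters of GRCh38.p14, and 513 of the 678 genes of the lists that were tested had an entry. The element TTTGAA, the core of the cell cycle homology region, was in 28 of the 50 promoters of G2 and M phase genes (56%), in 2 of the 49 of S phase genes (4.08%) and in 13.3% of all 35116 promoters. The element CCAAT was in 74% of the G2 and M phase promoters, 53.1% of the S phase promoters and 32% of all. Neither element was limited to cell cycle genes. Over the lists of hepatocyte genes the share ranged from 0% to 32.5% for TTTGAA and from 9.09% to 56.2% for CCAAT. In the promoters of CDK1, the kinase that drives entry into mitosis (chr10:60778161-60778330, plus strand), and of PLK1, a mitotic kinase (chr16:23678799-23678888, plus strand), capitals mark TTTGAA and CCAAT. Each sequence ends at the base before the transcription start.
CDK1: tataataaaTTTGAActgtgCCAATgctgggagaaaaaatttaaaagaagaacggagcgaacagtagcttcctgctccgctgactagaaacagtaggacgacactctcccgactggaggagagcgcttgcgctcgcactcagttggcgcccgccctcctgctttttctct
PLK1: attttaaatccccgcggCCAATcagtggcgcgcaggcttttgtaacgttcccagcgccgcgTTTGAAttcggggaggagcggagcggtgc

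The element CAAAGTCCA, a form of the HNF4A site, was in 7 of 236 promoters of hepatocyte genes (2.97%) and in 0.325% of all. It stood in 4 of the 16 P450 promoters, and is in capitals, as CAAAGTCCA or as its reverse complement, in the promoters of CYP2C8, a drug-metabolising P450 (chr10:95069498-95069597, minus strand), and of AHSG, the plasma protein fetuin-A (chr3:186612870-186613059, plus strand).
CYP2C8: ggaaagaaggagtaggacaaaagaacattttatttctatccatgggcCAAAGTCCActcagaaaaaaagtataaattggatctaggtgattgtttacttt
AHSG: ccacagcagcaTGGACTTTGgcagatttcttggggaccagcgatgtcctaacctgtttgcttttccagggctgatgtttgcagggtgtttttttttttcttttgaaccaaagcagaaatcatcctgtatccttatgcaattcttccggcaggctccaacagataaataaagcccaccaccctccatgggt

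The CArG box, the site of SRF, was in 7 of 28 promoters of contractile actin genes and YAP targets (25%) and in 1.16% of all. It is in capitals in ACTG2, smooth muscle gamma actin (chr2:73892888-73893007, plus strand), and in TPM4, a tropomyosin (chr19:16067348-16067537, plus strand). These matches describe the sequence and were not tested as binding sites.
ACTG2: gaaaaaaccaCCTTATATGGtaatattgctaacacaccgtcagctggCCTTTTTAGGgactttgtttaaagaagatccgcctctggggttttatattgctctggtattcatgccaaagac
TPM4: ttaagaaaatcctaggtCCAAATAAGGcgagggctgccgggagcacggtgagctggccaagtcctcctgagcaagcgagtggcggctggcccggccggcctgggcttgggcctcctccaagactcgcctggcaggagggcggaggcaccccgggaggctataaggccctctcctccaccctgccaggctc

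Signals are given as log2 of the scaled intensity, where 0 is the 75th percentile of an array and -9.09 the floor of 1 intensity unit. A gene was called at a Benjamini-Hochberg adjusted p below 0.005 in limma and a change of more than 2-fold, with n = 4 arrays per condition. Of 22214 genes, 1250 were called higher at D34 ± DMSO than at D4 and 647 lower. With the methods' t-test 513 were called higher and 177 lower, and of the 61 called genes under the rule for named genes 19 were not called, with the same fold changes. These include ALB, C3, TAT, CYP2C8, CYP7A1, ABCB11, SLCO1B3, TAGLN, CCN1, SNAI2, INHBA, SOX4, KRT23, MMP19, HAPLN1, CCL2, ODAPH and PLXND1. A further limit is the background of the array: 157 of the genes called higher had no D4 array on which the probe was flagged as well above background, and 17 of those called lower had no such array at D34 ± DMSO. Where all 4 arrays of one condition lay above all 4 of the other, the exact two-sided permutation p was 0.0286, the smallest that 4 against 4 arrays can give. For a gene at background in one condition a fold is given as a lower bound, against the lowest signal flagged in this way. The 75th percentile of the arrays ranged from 407 to 766 intensity units, and replicates correlated across genes with r of 0.966 to 0.987 at D4 and 0.955 to 0.991 at D34 ± DMSO. Between both conditions r was 0.910 to 0.957. The arrays came from 4 slides, and replicate 1 of D4 shared its slide with no D34 ± DMSO array. Within the 3 slides that held both conditions, 1246, 1249 and 1249 of the 1250 genes called higher were higher there too, and 644, 647 and 640 of the 647 called lower were lower. All lists together named 760 genes, and 1 gene stood in 2 of the lists. Of their 761 entries, 679 were tested, 67 were on the array below the background filter and 15 had no matched probe and were not analysed here.

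Replication and mitosis genes gave no call between D4 and D34 ± DMSO. Of the 117 cell cycle genes tested, none was called in either direction, against 5.63% of all genes called higher and 2.91% called lower. The median log2 change was -0.31 over 60 S phase genes and 0.14 over 57 G2 and M phase genes, beside -0.02 over all genes. At an unadjusted p below 0.05, 14 of the S phase genes were lower and none higher, and in G2 and M 1 was lower and 3 were higher. The G2 and M phase median was -0.12 without replicate 4 of D34 ± DMSO, and the S phase median -0.155 without replicate 1 of D34 ± DMSO.

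The same genes were far apart when each state was set beside the DMSO-treated cells, with which both comparisons share arrays. Against D30 + DMSO, 97 of the 117 were called higher at D34 ± DMSO and none lower, beside 4.96% and 2.11% of all genes. D30 + DMSO against D4 gave 101 called lower and none higher, beside 9.22% and 9.06% of all genes.

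CDK1 stood at 1.38, 1.37, 1.33 and 1.51 on the 4 D4 arrays, at -2.98, -1.76, -1.83 and -2.03 at D30 + DMSO and at 1.63, 1.49, 1.89 and 1.78 at D34 ± DMSO. The ranges at D4 and D34 ± DMSO overlapped, and both lay above every array of D30 + DMSO (D34 ± DMSO against D4, log2 change 0.30, SE 0.27, adjusted p = 0.490). TOP2A, the topoisomerase that untangles chromosomes, was at -0.52, -1.08, -1.43 and 0.33 at D4 and at -0.41, 0.10, -1.69 and 0.91 at D34 ± DMSO. Its overlapping values gave log2 change 0.40, SE 0.64, adjusted p = 0.722. CCNA2, CCNB1 and RRM2, a cyclin of S and G2, the mitotic cyclin and a subunit of ribonucleotide reductase, had log2 changes of 0.14, -0.40 and 0.23 and passed no test.

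Single genes came close to the limit. MKI67, the proliferation marker Ki-67, was at -0.83, -1.35, -1.27 and -1.72 at D4 and at -0.50, -0.18, -1.10 and 0.23 at D34 ± DMSO, and the highest D4 array lay above the lowest D34 array. Its change (log2 change 0.90, SE 0.23, adjusted p = 0.00668) missed both thresholds, and it became a call with the slide as a block (log2 change 1.04, adjusted p = 0.000866) and without replicate 1 of D4 or replicate 3 of D34 ± DMSO (1.06 and 1.14). PCNA, the replication clamp, was at 3.67, 3.73, 3.59 and 3.73 at D4 and at 2.63, 3.13, 3.40 and 2.97 at D34 ± DMSO, with every D34 array below every D4 array. Its change was under 2-fold (log2 change -0.65, SE 0.17, adjusted p = 0.00963). MCM2, a subunit of the replicative helicase (log2 change -0.61, SE 0.29, adjusted p = 0.147), and E2F1 (log2 change -0.51, SE 0.30, adjusted p = 0.245) were not called.

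Of 28 G1 regulators and inhibitors tested, 2 were called lower (7.14%) and none higher, beside 2.91% and 5.63% of all genes. MYC, a growth-promoting transcription factor, was at 2.42, 3.17, 2.91 and 2.56 at D4 and at 1.48, 1.50, 1.65 and 2.19 at D34 ± DMSO (log2 change -1.06, SE 0.18, adjusted p = 2.33e-04). CDKN2B, which encodes the CDK4 and CDK6 inhibitor p15, was at -3.12, -3.01, -3.66 and -2.96 and at -4.88, -4.75, -5.79 and -3.84 (log2 change -1.63, SE 0.31, adjusted p = 5.62e-04). Both were lower on every D34 array than on every D4 array. CCND1, the G1 cyclin D1 (log2 change -0.33, SE 0.35, adjusted p = 0.567), and CDKN1A, the inhibitor p21 (log2 change -0.77, SE 0.24, adjusted p = 0.0225), were not called.

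**Figure D1:**
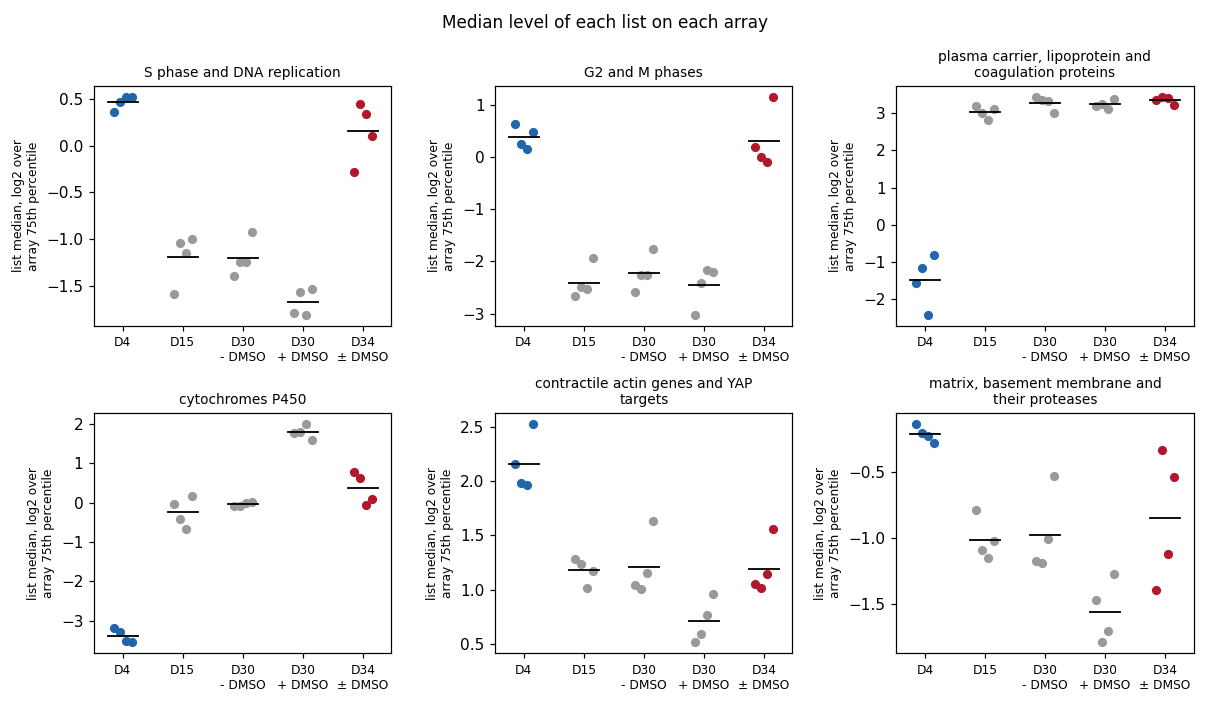
Median log2 signal of the tested genes of 6 lists on each array, relative to the 75th percentile of the array, at the 5 conditions (blue, D4; red, D34 ± DMSO; grey, the others; bars, means of 4 arrays). S phase and G2 and M phase medians at D34 ± DMSO lie beside those of D4, plasma protein medians beside those of D30 + DMSO, and P450 medians between both.

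Most hepatocyte genes were still expressed above the progenitor level. Of 315 hepatocyte genes tested from 10 lists, 224 (71.1%) were called higher than at D4, 1 was called lower and 90 were not called, where 5.63% and 2.91% of all genes were called. The median log2 change was 2.45, or 2.36 with the 24 genes whose D4 level was at background entered at their bound. The counts describe lists that were chosen with earlier results of these arrays known. The share differed between the functions of the liver.

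Plasma proteins had the highest share of calls among the 10 lists. Of 49 genes for carriers, lipoproteins and coagulation factors, 47 were called higher, with a median log2 change of 4.47. TFPI, an inhibitor of coagulation, and APOC2, a lipoprotein cofactor, were the exceptions (-0.40 and 2.97). ALB, albumin, was at 6.46, 7.72, 6.57 and 7.37 at D4 and at 9.27, 9.26, 9.63 and 9.49 at D34 ± DMSO, a 5.21-fold difference (log2 change 2.38, SE 0.24, adjusted p = 5.77e-07). Albumin was bright in the progenitors as well, and every D34 array still lay above every D4 array. TTR, the thyroxine carrier transthyretin, was at 4.40, 4.53, 3.91 and 4.67 and at 8.77, 8.66, 9.13 and 8.84 (log2 change 4.47, SE 0.19, adjusted p = 1.21e-11).

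Genes with little or no signal in progenitors stood further apart. PLG, plasminogen, was at background at D4 and reached 2.44, 2.34, 2.52 and 2.76 at D34 ± DMSO, at least 435-fold higher (adjusted p = 8.52e-10). F9, coagulation factor IX, was well above background on 1 of the 4 D4 arrays, with values of -7.34, -9.09, -9.09 and -4.52, and was at 2.46, 1.70, 1.93 and 1.07 at D34 ± DMSO (log2 change 9.30, SE 0.71, adjusted p = 1.21e-08). APOA2, a protein of high-density lipoprotein, went from -4.06, -4.88, -5.67 and -2.99 to 3.31, 3.43, 4.04 and 4.29 (log2 change 8.17, SE 0.43, adjusted p = 1.07e-10). F2, prothrombin (log2 change 4.39, SE 0.29, adjusted p = 2.05e-09), and APOA1, the main protein of high-density lipoprotein (log2 change 5.47, SE 0.37, adjusted p = 2.29e-09), were higher too. None of these groups overlapped.

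Against D30 + DMSO most plasma protein genes were not called: 7 were lower and 2 higher at D34 ± DMSO, beside 2.11% and 4.96% of all genes. The 2 higher were AHSG and ITIH3, an inter-alpha-trypsin inhibitor chain. AHSG was at -4.38, -4.06, -4.59 and -3.70 at D4, at 0.54, 0.50, -0.11 and -0.43 at D30 + DMSO and at 3.38, 2.95, 3.44 and 3.15 at D34 ± DMSO. Each of these states lay clear of the others, with log2 change 7.41, SE 0.23, adjusted p = 4.52e-13 against D4 and a log2 change of 3.10 against D30 + DMSO (adjusted p = 3.13e-08). AHSG means in the cultures without DMSO were 1.51 on day 15 and 2.78 on day 30, beside 3.23 at D34 ± DMSO.

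Acute-phase and complement genes were called higher in 27 of 30, with a median log2 change of 2.92. Against D30 + DMSO, 6 of the 30 were called higher and none lower, beside 4.96% and 2.11% of all genes. HP, haptoglobin, was at 6.80, 7.76, 6.72 and 7.42 at D4 and at 9.52, 9.51, 9.80 and 9.64 at D34 ± DMSO (log2 change 2.44, SE 0.21, adjusted p = 7.19e-08). C3, the central complement component, was at 4.27, 4.29, 4.19 and 5.17 and at 6.36, 6.49, 5.90 and 6.30 (log2 change 1.78, SE 0.20, adjusted p = 2.16e-06). The terminal complement genes were among the most changed. C8B was at -3.66, -3.47, -4.58 and -2.98 at D4, at 2.90, 2.55, 1.64 and 0.42 at D30 + DMSO and at 4.11, 3.75, 4.08 and 3.01 at D34 ± DMSO (log2 change 7.41, SE 0.44, adjusted p = 4.36e-10), and its partners in the membrane attack complex C8A and C6 had log2 changes of 7.08 and 5.04. C9, below background at D4, was at least 26.8-fold higher (adjusted p = 6.05e-06). LBP, which binds bacterial lipopolysaccharide, and CP, the copper carrier ceruloplasmin, were called higher at D34 ± DMSO than at both D4 (1.71 and 2.09) and D30 + DMSO (2.25 and 1.88), whereas D30 + DMSO against D4 gave -0.54 and 0.21.

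In amino acid, urea and one-carbon metabolism 28 of 44 genes were called higher and none lower. ARG1, arginase of the urea cycle, was at -7.58, -7.13, -9.09 and -7.52 at D4, below background on all arrays, and at 4.37, 3.70, 4.10 and 2.52 at D34 ± DMSO, at least 1056-fold higher (adjusted p = 1.21e-11). It had the highest fitted rise of all genes tested, and its levels at D30 + DMSO, 4.08, 3.86, 3.39 and 2.31, overlapped them. OTC, the enzyme that forms citrulline, was at least 157-fold higher (adjusted p = 1.36e-10), and CPS1, the entry enzyme of the urea cycle, was higher too (log2 change 4.89, SE 0.50, adjusted p = 5.63e-07). NAGS, ASS1 and GOT1, which also serve nitrogen handling, passed no test (-0.19, 0.29 and 0.28). TDO2, which starts tryptophan breakdown, was higher (log2 change 6.05, SE 0.39, adjusted p = 1.39e-09), as was TAT, tyrosine aminotransferase (log2 change 2.23, SE 0.40, adjusted p = 4.01e-04).

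By number, this list also had the most genes called below D30 + DMSO, 14 of 44, with 1 higher, beside 2.11% and 4.96% of all genes. The P450 list had a larger share below D30 + DMSO, 10 of 23. GNMT, the methyltransferase of glycine, was at -5.13, -5.04, -4.82 and -5.60 at D4, at 2.54, 2.25, 2.64 and 2.05 at D30 + DMSO and at -1.23, -2.38, -1.96 and -2.83 at D34 ± DMSO. It was thus called higher than at D4 (log2 change 3.05, SE 0.29, adjusted p = 1.92e-07) and lower than at D30 + DMSO (log2 change -4.47, adjusted p = 8.75e-09). SDS and GLS2, serine dehydratase and liver glutaminase, had log2 changes of -3.33 and -3.14 against D30 + DMSO, and were not called against D4 (1.05 and 0.66).

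Among genes of glucose, fructose and glycogen metabolism 13 of 17 were called higher and none lower. G6PC1, the glucose-6-phosphatase that releases glucose from the liver, was at -9.09, -8.82, -9.09 and -8.93 at D4, not above background, and at -0.22, 0.61, 0.48 and -1.18 at D34 ± DMSO, at least 78.6-fold higher (adjusted p = 9.61e-12). At D30 + DMSO it stood at 2.50, 2.60, 2.70 and 1.89, above every D34 array (log2 change -2.50, adjusted p = 5.68e-05). PCK1, the key enzyme of gluconeogenesis, was at the floor on all 4 D4 arrays and at -3.25, -2.58, -2.80 and -4.71 at D34 ± DMSO, at least 8.22-fold higher (adjusted p = 4.74e-06). PKLR, the liver pyruvate kinase, was 10.2-fold higher (log2 change 3.34, SE 0.18, adjusted p = 1.18e-10), while PYGL, liver glycogen phosphorylase, passed no test (-0.18).

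The isozymes that growing cells use beside these liver forms gave few calls. Of 24 growth-state isozymes tested, 1 was called higher and 2 lower (4.17% and 8.33%), which is near the 5.63% and 2.91% of all genes. SLC2A1, the glucose transporter GLUT1, was among those called lower, with a log2 change of -1.48. PKM, the pyruvate kinase of growing cells, was at 4.86, 4.50, 4.86 and 5.63 at D4 and at 3.74, 3.41, 3.60 and 4.87 at D34 ± DMSO, with overlap (log2 change -1.06, SE 0.38, adjusted p = 0.0513), and was called once slides were blocked (adjusted p = 8.71e-05). HK2, a hexokinase (log2 change 0.59, SE 0.29, adjusted p = 0.162), and MAT2A, the extrahepatic methionine adenosyltransferase (log2 change -0.38, SE 0.32, adjusted p = 0.452), were not called. SHMT2, the mitochondrial serine hydroxymethyltransferase, was the one called higher (1.13).

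In fatty acid oxidation, ketogenesis and lipid handling 25 of 41 genes were called higher and none lower. FABP1, the liver fatty acid binding protein, was at -2.78, -0.84, -3.56 and -1.24 at D4 and at 7.20, 6.63, 7.13 and 6.41 at D34 ± DMSO, 494-fold higher (log2 change 8.95, SE 0.45, adjusted p = 6.62e-11). The genes of mitochondrial beta-oxidation that most tissues share had log2 changes of 0.28 for CPT1A, 0.46 for ACADM and 0.48 for HADHA, none of them called. Alcohol and aldehyde oxidation gave 12 of 20 called higher and none lower. ADH1B, an alcohol dehydrogenase, was below background at D4 and at 2.30, 1.38, 1.46 and 0.23 at D34 ± DMSO, at least 210-fold higher (adjusted p = 3.19e-11). ADH4 (log2 change 7.74, SE 0.45, adjusted p = 3.88e-10) and ALDH2, the mitochondrial aldehyde dehydrogenase (log2 change 2.22, SE 0.16, adjusted p = 7.95e-09), were higher than at D4, and ALDH2 was lower than at D30 + DMSO (log2 change -1.68, adjusted p = 6.09e-07).

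Most cytochromes P450 stood above the progenitor level. Of 23 tested, 18 were called higher than at D4 and none lower. Against D30 + DMSO, 10 were called lower and 2 higher, beside 2.11% and 4.96% of all genes. CYP3A4, which metabolises many drugs, was at -3.19, -2.85, -3.10 and -3.43 at D4, at 6.70, 6.57, 6.88 and 6.70 at D30 + DMSO and at 0.78, 0.05, -0.05 and -0.01 at D34 ± DMSO. It was 10.1-fold above D4 (log2 change 3.34, SE 0.26, adjusted p = 1.22e-08) at a log2 distance of -6.52 from D30 + DMSO (adjusted p = 1.74e-11). CYP2B6 lay in between in the same way, at -2.39, -2.67, -2.29 and -3.55 at D4, at 5.91, 5.71, 6.35 and 5.55 at D30 + DMSO and at 1.20, 0.80, 0.70 and 0.56 at D34 ± DMSO (log2 change 3.54, SE 0.27, adjusted p = 1.20e-08), but a second, dimmer probe gave a log2 change of 0.03 against D4 (adjusted p = 0.957). CYP2E1, which oxidises ethanol, was below background at D4, at 1.54, 1.65, 1.75 and 1.77 at D30 + DMSO and at -1.46, -1.40, -2.48 and -2.29 at D34 ± DMSO, at least 22.1-fold above D4 (adjusted p = 3.09e-09). On days 15 and 30 without DMSO, the means were 1.06 and 2.64 for CYP3A4 and 1.18 and 1.56 for CYP2B6. Both genes were lower at D34 ± DMSO, with means of 0.19 and 0.81. CYP2E1 had means of -4.62 and -3.08 without DMSO, below its mean of -1.91 at D34 ± DMSO. These differences were not tested.

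CYP2C19 and CYP2C8 were not called between D34 ± DMSO and D30 + DMSO. CYP2C19 was below background on all D4 arrays, at 2.38, 2.60, 2.89 and 2.44 at D30 + DMSO and at 2.07, 2.03, 1.48 and 1.01 at D34 ± DMSO, at least 260-fold above D4 (adjusted p = 1.21e-11) with a log2 change of -0.93 against D30 + DMSO (adjusted p = 0.150). CYP2C8 was at -6.59, -5.55, -9.09 and -4.37 at D4, at 1.78, 2.37, 2.54 and 3.21 at D30 + DMSO and at 0.40, 0.61, -0.51 and 1.09 at D34 ± DMSO (log2 change 6.80, SE 0.70, adjusted p = 6.40e-07 against D4, -2.08 and adjusted p = 0.0405 against D30 + DMSO). CYP2C genes are similar in sequence, and probes of one may also bind transcripts of another. At the other end CYP2A13 and CYP1A2 were back within a range that passed no test, at 0.47 and 1.19 against D4 after 4.56 and 2.76 for D30 + DMSO against D4. CYP4A11 and CYP4A22, fatty acid hydroxylases, were the 2 that were higher than at D30 + DMSO (1.80 and 1.36).

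Of 29 conjugating and other drug-metabolising enzymes, 15 were called higher and none lower. SULT2A1, the bile acid and steroid sulfotransferase, was at -3.85, -2.44, -3.93 and -1.91 at D4 and at 4.40, 3.98, 4.12 and 3.48 at D34 ± DMSO (log2 change 7.03, SE 0.36, adjusted p = 9.25e-11), and UGT2B4, a glucuronosyltransferase of bile acids, was at -2.78, -1.97, -4.34 and -1.60 and at 4.58, 3.95, 4.19 and 4.49 (log2 change 6.97, SE 0.38, adjusted p = 2.03e-10). SULT1E1, the estrogen sulfotransferase, was low at D4 and with DMSO. In the cultures without DMSO its means were -2.62 on day 15 and -1.96 on day 30, beside -1.56 at D34 ± DMSO. It was at -6.23, -7.76, -8.15 and -5.35 at D4, at -6.32, -6.90, -8.19 and -9.09 at D30 + DMSO and at -1.23, -1.07, -1.37 and -2.57 at D34 ± DMSO. Levels at D30 + DMSO overlapped those of the progenitors, and every D34 array lay above them (log2 change 5.31, SE 0.61, adjusted p = 2.33e-06 against D4, log2 change 6.06 and adjusted p = 7.96e-07 against D30 + DMSO). CES1, a carboxylesterase already bright at D4, differed by less than 2-fold on the probe used (log2 change 0.73, SE 0.17, adjusted p = 0.00288), and its other 2 probes, at a log2 change of 1.01 each, were called.

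Bile acid enzymes and transporters were called higher in 20 of 29 and lower in 1. CYP7A1, the rate-limiting enzyme of bile acid synthesis, was at -4.70, -8.09, -5.72 and -6.64 at D4 and at 0.80, 0.54, 0.53 and -1.99 at D34 ± DMSO (log2 change 6.26, SE 0.72, adjusted p = 2.77e-06). CYP8B1, which sets the share of cholic acid, was at -5.31, -5.67, -6.98 and -4.67 and at 3.61, 3.43, 3.51 and 1.68 (log2 change 8.72, SE 0.52, adjusted p = 4.55e-10). SLC10A1, the bile acid importer NTCP, was higher than at D4 (log2 change 4.59, SE 0.28, adjusted p = 7.57e-10) and lower than at D30 + DMSO (log2 change -1.31, adjusted p = 0.00230). ABCB11, the bile salt export pump, was below background at D4 and at -3.69, -3.79, -4.65 and -4.77 at D34 ± DMSO, at least 4.43-fold higher (adjusted p = 0.00170). Its call did not hold without replicate 2 or 3 of D4 or replicate 1 or 2 of D34 ± DMSO, with adjusted p of 0.00657 to 0.00839.

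SLCO1B3, the hepatic uptake transporter OATP1B3, was the one hepatocyte gene called lower. It was at -3.55, -3.42, -3.75 and -3.58 at D4, above background on all arrays, and at -6.55, -5.69, -7.53 and -4.58 at D34 ± DMSO, above background on 1 array (log2 change -2.51, SE 0.48, adjusted p = 7.00e-04). With normexp background correction its log2 change was -0.59 and it was not called. Its neighbour in function SLCO1B1 had a log2 change of 5.91 and was called higher.

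Nuclear receptors and liver transcription factors were called higher in 19 of 33 and lower in none. NR1I2 was at -4.63, -5.69, -5.61 and -4.61 at D4, at -0.15, -0.13, 0.09 and -0.46 at D30 + DMSO and at -0.52, -0.20, -0.77 and -1.21 at D34 ± DMSO (log2 change 4.46, SE 0.26, adjusted p = 4.36e-10). NR1I3 was at -5.15, -5.40, -4.62 and -5.36 at D4, at 1.52, 1.29, 1.71 and 0.72 at D30 + DMSO and at 0.00, -0.39, -0.63 and -1.90 at D34 ± DMSO (log2 change 4.40, SE 0.40, adjusted p = 1.44e-07), and was lower than at D30 + DMSO (log2 change -2.04, adjusted p = 0.00106), as was NR0B2, the repressor SHP (-2.80). CEBPA was at -1.97, -1.81, -1.83 and -1.43 at D4 and at 1.94, 1.49, 1.58 and 1.46 at D34 ± DMSO (log2 change 3.38, SE 0.16, adjusted p = 2.47e-11). The HNF4A probe, designed on the transcript NM_001030004, was dim throughout and below background at D4, at least 5.11-fold higher at D34 ± DMSO (adjusted p = 3.34e-08). Factors of the stress and glucocorticoid response, CEBPD and NR3C1, passed no test, with log2 changes of 0.07 for CEBPD and 0.18 for NR3C1.

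**Figure D2:**
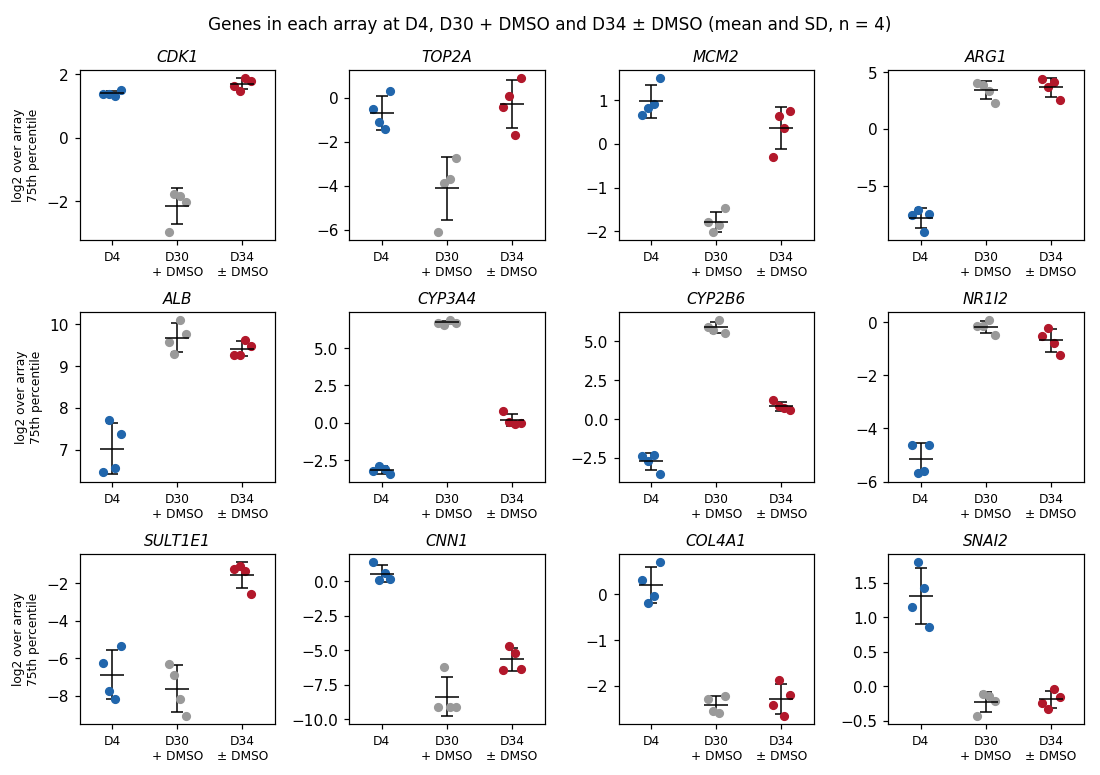
Log2 signal relative to the 75th percentile of the array for 12 genes on each of the 4 arrays of D4 (blue), D30 + DMSO (grey) and D34 ± DMSO (red), with mean and SD. CDK1, TOP2A and MCM2 at D34 ± DMSO lie at or near D4, ARG1, ALB and NR1I2 near D30 + DMSO, CYP3A4 and CYP2B6 between both, and CNN1, COL4A1 and SNAI2 below D4.

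At D4 the probe was well above background on 3 of the 4 arrays for APOA2 and NR1I2, on 2 for GNMT, TAT, CYP7A1, CYP4A22, SLC10A1, NR1I3 and NR0B2, and on 1 for CYP2C8, CYP8B1 and SULT1E1. The D4 levels of these genes are less certain than those of genes detected on every array.

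Over all hepatocyte lists, 56 of the 315 genes were called lower at D34 ± DMSO than at D30 + DMSO and 15 higher, beside 2.11% and 4.96% of all genes, with a median log2 change of -0.45. D30 + DMSO against D4 gave 247 called higher and 2 lower, beside 9.06% and 9.22%. The 3 comparisons share arrays, and their counts are given side by side only.

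On the progenitor side, 36 of 141 genes tested from 4 lists (25.5%) were called lower at D34 ± DMSO than at D4 and 7 higher (4.96%), beside 2.91% and 5.63% of all genes. The median log2 change was -0.75. D30 + DMSO against D4 gave 76 called lower and 9 higher, beside 9.22% and 9.06% of all genes. D34 ± DMSO against D30 + DMSO gave 28 called higher and 3 lower, beside 4.96% and 2.11%. The lists of contractile, matrix and mesenchymal genes carried 33 of the 36.

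Contractile actin genes and YAP targets were called lower in 15 of 33 (45.5%) and higher in none, beside 2.91% and 5.63% of all genes. Their median log2 change was -1.21, and all 33 values were below 0. CNN1, the smooth muscle protein calponin, had the largest fitted fall of all genes tested. It was at 1.41, 0.08, 0.62 and 0.17 at D4, at -9.09, -6.25, -9.09 and -9.09 at D30 + DMSO and at -6.40, -4.68, -5.22 and -6.39 at D34 ± DMSO, where it was above background on 2 of the 4 arrays (log2 change -6.24, SE 0.60, adjusted p = 2.45e-07). ACTG2 was at -0.57, -1.75, -1.92 and -0.82 at D4 and at -4.82, -5.21, -4.46 and -5.21 at D34 ± DMSO (log2 change -3.66, SE 0.57, adjusted p = 8.01e-05), and TAGLN, the actin-binding transgelin, was at -0.29, -0.99, -0.92 and 0.48 and at -2.36, -2.18, -2.13 and -1.91 (log2 change -1.71, SE 0.25, adjusted p = 4.26e-05). In none of the 3 did the groups overlap.

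CCN1, a YAP target and secreted matricellular protein, was at 5.36, 6.24, 5.57 and 5.65 at D4 and at 3.06, 3.32, 2.54 and 4.28 at D34 ± DMSO (log2 change -2.41, SE 0.27, adjusted p = 2.09e-06), and ANKRD1, AMOTL2 and F3 had called changes of -1.68, -1.38 and -2.24. CCN2, a close relative of CCN1, was at 0.29, 2.07, 0.87 and 1.36 and at -0.05, -0.09, -1.21 and 1.10, with overlap (log2 change -1.21, SE 0.46, adjusted p = 0.0630). ACTA2, smooth muscle alpha actin, also overlapped, at 2.41, 1.98, 1.97 and 3.05 and 1.67, 1.45, 1.60 and 2.42 (log2 change -0.57, SE 0.28, adjusted p = 0.157). FLNA, the actin crosslinker filamin A, was at 2.67, 1.61, 2.01 and 2.77 at D4, -2.24, -2.08, -2.04 and -1.66 at D30 + DMSO and 0.23, 0.89, 0.20 and 1.70 at D34 ± DMSO. It was higher than at D30 + DMSO (log2 change 2.76, adjusted p = 8.02e-05) and did not pass the test against D4 (log2 change -1.51, SE 0.42, adjusted p = 0.0116).

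Of 54 genes for matrix, basement membrane and their proteases, 12 were called lower and 3 higher (22.2% and 5.56%). Of all genes, 2.91% were called lower and 5.63% higher, so the share called higher is near that of all genes. COL4A1, a chain of basement membrane collagen, was at 0.31, -0.19, -0.03 and 0.71 at D4, at -2.30, -2.56, -2.61 and -2.24 at D30 + DMSO and at -2.42, -1.88, -2.68 and -2.20 at D34 ± DMSO. The D34 and D30 + DMSO arrays overlapped and lay below every D4 array (log2 change -2.50, SE 0.22, adjusted p = 9.49e-08 against D4, log2 change 0.13 against D30 + DMSO), and its partner COL4A2 changed by -1.90 against D4. HAPLN1, which links hyaluronan and proteoglycan, was at -3.36, -0.82, -3.92 and -4.49 at D4 and at the floor on all arrays of both later states, at least 10.7-fold lower at D34 ± DMSO (adjusted p = 1.50e-07). MMP2, gelatinase A, was at -2.98, -2.51, -2.75 and -3.07 at D4 and below background at D34 ± DMSO, at least 13.4-fold lower (adjusted p = 2.24e-07).

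Other matrix genes stood between D30 + DMSO and D4. POSTN, periostin, was at 2.98, 2.59, 2.07 and 3.25 at D4, at -5.52, -4.52, -4.93 and -4.64 at D30 + DMSO and at -1.61, -0.40, -1.06 and 0.63 at D34 ± DMSO. LUM, the collagen-binding lumican, was at 2.65, 3.55, 3.01 and 3.12 at D4, at -2.44, -1.92, -1.90 and -2.54 at D30 + DMSO and at 0.06, 0.10, 0.59 and 0.17 at D34 ± DMSO. Both were called lower than at D4 (-3.33 and -2.85) and higher than at D30 + DMSO (4.29 and 2.43). COL1A1, a chain of fibrillar collagen, overlapped between D4 and D34 ± DMSO (log2 change -1.25, SE 0.43, adjusted p = 0.0386), and FN1, fibronectin (log2 change 0.87, SE 0.32, adjusted p = 0.0519), was not called. The 3 called higher were COL18A1 (1.31), MMP10 (2.10) and MMP19 (log2 change 3.30, SE 0.47, adjusted p = 2.99e-05). For MMP19 a second probe gave a log2 change of -0.43 (adjusted p = 0.0420), so its probes disagree.

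Some genes of these lists were low with DMSO and not called against D4 once it was removed. TNC, tenascin C, was at -1.08, -1.84, -2.55 and -1.07 at D4, at -5.13, -5.22, -5.45 and -5.14 at D30 + DMSO and at -2.04, -0.82, -2.26 and -1.91 at D34 ± DMSO (log2 change -0.12, SE 0.33, adjusted p = 0.843 against D4). S100A4, a calcium-binding protein of motile cells, was at 0.31, 0.51, 0.16 and 0.23 at D4, at -2.73, -2.52, -2.51 and -1.80 at D30 + DMSO and at -0.05, -0.27, 0.23 and 0.94 at D34 ± DMSO (log2 change -0.09, SE 0.33, adjusted p = 0.890). H19, an imprinted fetal RNA, was at 1.12, 0.74, 0.00 and 1.49 at D4, at -3.03, -2.53, -2.83 and -4.57 at D30 + DMSO and at -0.18, -0.19, -0.22 and 0.70 at D34 ± DMSO (log2 change -0.81, SE 0.40, adjusted p = 0.159). In all 3 the arrays of D4 and D34 ± DMSO overlapped and lay above those of D30 + DMSO. The 3 were chosen after their values were seen. Of the genes called lower, ACTG2, ITGB3 and CDKN2B were well above background on 3 of the 4 D34 ± DMSO arrays, and the MMP10 probe was above it on 1 array of D4 and 3 of D34 ± DMSO.

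Mesenchymal markers and TGF-beta signalling gave 6 of 24 called lower and 2 higher (25% and 8.33%), beside 2.91% and 5.63% of all genes. SNAI2, the transcription factor Slug, was at 1.15, 1.80, 1.42 and 0.86 at D4 and at -0.25, -0.33, -0.04 and -0.15 at D34 ± DMSO (log2 change -1.50, SE 0.17, adjusted p = 2.48e-06), and ITGB3, an integrin subunit, was at -2.67, -3.17, -2.71 and -2.84 and at -4.91, -4.71, -5.61 and -4.94 (log2 change -2.19, SE 0.30, adjusted p = 1.93e-05). INHBA, the activin subunit, and SNAI1, the transcription factor Snail, were higher. INHBA was at -4.53, -4.15, -4.26 and -4.47 and at -1.71, -1.50, -2.20 and -3.26 (log2 change 2.18, SE 0.38, adjusted p = 2.89e-04), and SNAI1 changed by 1.47. VIM, vimentin (log2 change -0.45, SE 0.33, adjusted p = 0.374), and CDH2, N-cadherin (log2 change -0.31, SE 0.16, adjusted p = 0.179), were not called. Of 6 epithelial markers, CDH1, E-cadherin, was at -1.15, -1.38, -1.35 and -1.39 at D4 and at 1.88, 1.38, 1.27 and 0.90 at D34 ± DMSO (log2 change 2.68, SE 0.30, adjusted p = 2.00e-06), and the splicing factor ESRP2 was called higher as well (1.30). The other 4 were not called, with log2 changes from -1.04 for the splicing factor ESRP1 to 0.03 for the transcription factor GRHL2, and the median of the list was -0.02.

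The markers that name a hepatic progenitor or a biliary cell were mostly not called between D4 and D34 ± DMSO. Of 30 progenitor, biliary and oncofetal genes tested, 3 were called lower and 2 higher (10% and 6.67%), beside 2.91% and 5.63% of all genes. The median log2 change was -0.07. SOX9, a factor of biliary and progenitor cells, was at -4.34, -4.17, -4.22 and -3.23 at D4, at -2.08 to -1.50 at D30 + DMSO and at -3.66, -3.62, -4.44 and -3.79 at D34 ± DMSO. It was back in the range of D4 (log2 change 0.11, SE 0.24, adjusted p = 0.800) and below every D30 + DMSO array (log2 change -2.09, adjusted p = 4.75e-06). KRT7, a biliary keratin, was at 4.60, 4.41, 4.82 and 4.25 at D4 and at 4.91, 4.51, 5.21 and 4.45 at D34 ± DMSO (log2 change 0.25, SE 0.18, adjusted p = 0.347). KRT19, the other biliary keratin, was at 8.05, 7.20, 7.48 and 7.51 and at 6.81, 6.36, 6.98 and 6.92. Its groups did not overlap, but the change was under 2-fold (log2 change -0.79, SE 0.19, adjusted p = 0.00391), and it was called with quantile normalization (adjusted p = 0.00234) and with normexp background correction (log2 change -1.07, adjusted p = 0.00144). AFP, alpha-fetoprotein, was at -0.24, 0.01, -0.12 and -0.72 and at 0.40, 0.40, 0.50 and 0.10 (log2 change 0.61, SE 0.20, adjusted p = 0.0289). EPCAM, a surface marker of hepatic progenitors, did not pass the background filter in any condition.

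The 3 called lower were SOX4 (log2 change -1.38, SE 0.21, adjusted p = 5.09e-05), a factor of progenitor and tumour cells, the surface protein CD24 (-1.30) and the Wnt receptor FZD7 (-1.12). The 2 called higher were above D4 and D30 + DMSO. In the cultures without DMSO, SPP1 had means of 2.38 on day 15 and 2.34 on day 30, beside 2.79 at D34 ± DMSO. KRT23 had means of -3.72 and -3.06 in these cultures, beside -4.36 at D34 ± DMSO. SPP1, osteopontin, was at 0.35, 1.28, 0.69 and 0.41 at D4, at 0.06, 0.37, 0.57 and 1.27 at D30 + DMSO and at 2.68, 2.50, 2.97 and 2.99 at D34 ± DMSO (log2 change 2.10, SE 0.24, adjusted p = 1.97e-06), with a log2 change of 2.22 against D30 + DMSO (adjusted p = 1.73e-06). KRT23, a keratin of reactive biliary cells, was below background at D4, at -3.38, -5.61, -5.01 and -3.43 at D34 ± DMSO and above background on 3 of these arrays, at least 3.91-fold higher (adjusted p = 0.00261). The KRT23 call did not hold when replicate 1 or 2 of D4 or replicate 1 or 4 of D34 ± DMSO was left out, with adjusted p of 0.00516 to 0.0129.

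**Figure D3:**
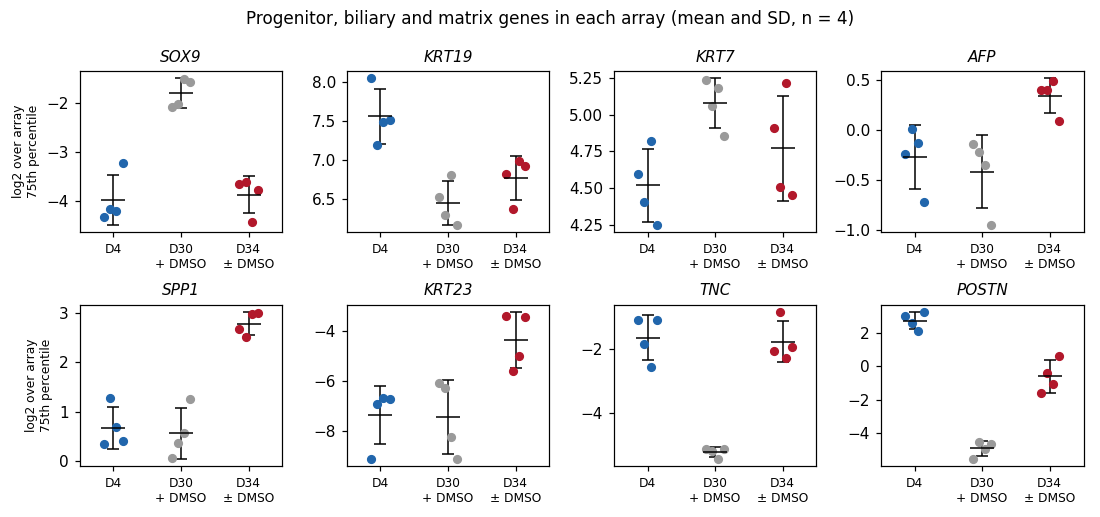
Log2 signal relative to the 75th percentile of the array for 8 progenitor, biliary and matrix genes on each of the 4 arrays of D4 (blue), D30 + DMSO (grey) and D34 ± DMSO (red), with mean and SD. SOX9, KRT7 and TNC overlap between D4 and D34 ± DMSO, and POSTN lies between D30 + DMSO and D4. Of the conditions shown, SPP1 and KRT23 are highest at D34 ± DMSO.

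Chemokines and cytokines were called lower in 5 of 20 and higher in 1, beside 2.91% and 5.63% of all genes. CCL2, which attracts monocytes, was at 1.69, 2.31, 2.41 and 2.42 at D4, at 0.01, -0.77, -0.79 and -1.19 at D30 + DMSO and at 0.52, 0.10, 0.45 and 1.31 at D34 ± DMSO (log2 change -1.61, SE 0.26, adjusted p = 1.39e-04 against D4), between both. CXCL3, LIF and IL11 were called lower as well, CXCL3 and LIF with log2 changes of -1.94 and -1.25, and IL11, below background at D34 ± DMSO, at least 5.02-fold (adjusted p = 0.00346). IL6 missed the threshold (log2 change -1.52, SE 0.39, adjusted p = 0.00747) and passed it without replicate 1 of D4 (log2 change -2.05, adjusted p = 2.78e-05). CXCL8, interleukin 8, overlapped fully (log2 change -0.12, SE 0.58, adjusted p = 0.919). CXCL2, a neutrophil attractant, was the one called higher, at 1.00, 2.03, 0.93 and 0.91 at D4 and 3.16, 4.51, 3.50 and 2.55 at D34 ± DMSO (log2 change 2.21, SE 0.53, adjusted p = 0.00404).

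Of the 8 largest fitted falls without overlap between the groups, 5 belonged to no list. AMTN and ODAPH are known as proteins of developing enamel. AMTN was at 0.59, 0.25, 0.80 and 0.18 at D4 and at -6.69, -5.42, -5.24 and -5.16 at D34 ± DMSO, where it was above background on 1 array (log2 change -6.08, SE 0.45, adjusted p = 7.75e-09). ODAPH was at -3.13, -1.90, -2.12 and -2.27 at D4 and below background at D34 ± DMSO, at least 18.0-fold lower (adjusted p = 1.42e-05). PLXND1, a semaphorin receptor, was at least 11.6-fold lower (adjusted p = 7.04e-04), and PSG3, a pregnancy-specific glycoprotein, at least 21.3-fold lower (adjusted p = 5.39e-07). A probe known here only as ENST00000367072 was at the floor on all D34 arrays, at least 10.2-fold lower (adjusted p = 1.34e-10).

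PSG3 belongs to a placental gene family, whose other members were looked up after its value was seen. Of 6 PSG genes tested, 5 were called lower, PSG3 among them, and none higher, beside 2.91% and 5.63% of all genes. On day 15, before DMSO, the means of PSG3 and PSG1 were -6.04 and -6.18, beside -2.12 and -3.24 at D4. PSG3 was at -2.53, -1.48, -1.76 and -2.72 at D4 and at -7.92, -7.77, -6.53 and -6.24 at D34 ± DMSO. PSG5 was at -2.14, -1.87, -1.59 and -1.90 and at -5.42, -6.02, -5.88 and -5.53 (log2 change -3.84, SE 0.34, adjusted p = 1.03e-07, above background on 1 array of D34 ± DMSO), and PSG1, at -3.44, -3.58, -3.15 and -2.80 at D4, was at least 9.16-fold lower (adjusted p = 3.23e-04). PSG2 was called (log2 change -3.90, SE 0.83, adjusted p = 0.00173) although replicate 2 of D34 ± DMSO, at -3.61, lay within the D4 range and was the only one of the 4 above background. PSG8 was not called (log2 change -1.05, SE 0.30, adjusted p = 0.0150). PSG genes are near-identical in sequence, so their probes may share signal and are not independent. CGB3, a beta chain of the placental hormone chorionic gonadotropin, was at 0.11, -0.62, -0.37 and 0.22 at D4 and at -3.97, -3.67, -3.49 and -3.82 at D34 ± DMSO (log2 change -3.57, SE 0.20, adjusted p = 2.88e-10), and CGB2 was not called (-0.17).

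**Figure D4:**
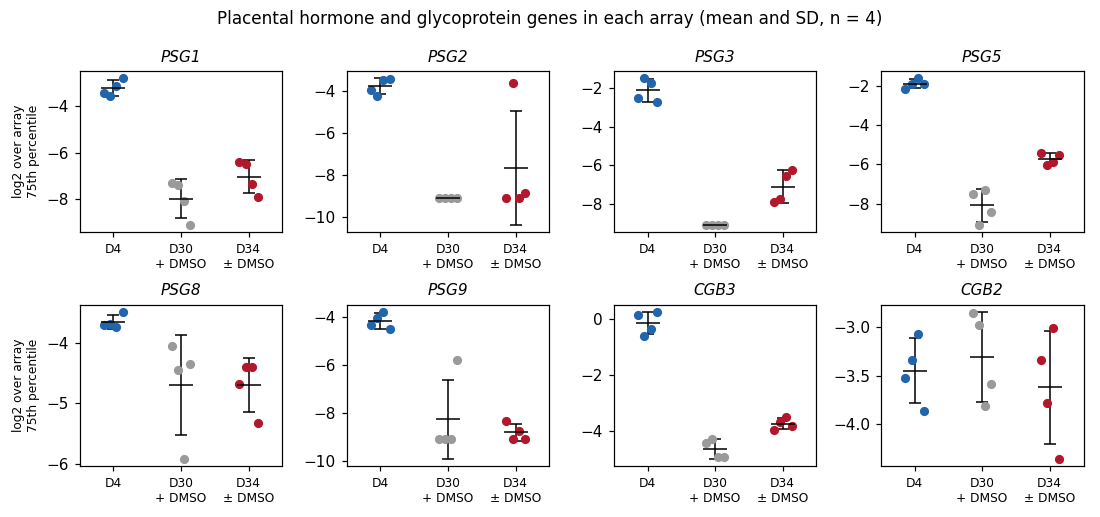
Log2 signal relative to the 75th percentile of the array for 6 PSG genes, CGB3 and CGB2 on each of the 4 arrays of D4 (blue), D30 + DMSO (grey) and D34 ± DMSO (red), with mean and SD, and -9.09 as the floor. CGB3 and the PSG genes other than PSG2 lie below D4 on every D34 array, and PSG2 and CGB2 overlap.

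The keratin family was looked up in the same way. Of 28 keratins tested, 2 were called higher, 2 lower and 24 not, where 5.63% of all genes were called higher and 2.91% lower. KRT23 and KRT222 were the ones called higher (for KRT222, log2 change 2.18, SE 0.23, adjusted p = 7.19e-07). KRT4 and KRT5, of squamous and basal epithelia, were called lower (log2 change -2.18, SE 0.19, adjusted p = 7.93e-08 and log2 change -2.34, SE 0.44, adjusted p = 5.70e-04). KRT18 and KRT8, the keratins of hepatocytes, were not (-0.07 and -0.53).

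Of 18 transcripts often used as references none was called, with log2 changes from -0.96 for TFRC to 0.22 for SDHA and a median of -0.17. At an unadjusted p below 0.05 in limma, 5 of them were lower and none higher. GAPDH had log2 change -0.56, SE 0.21, adjusted p = 0.0598 and TBP log2 change -0.31, SE 0.13, adjusted p = 0.109. Of 10 tested markers of leukocytes, endothelium and stellate cells, 2 were called higher and none lower, beside 5.63% and 2.91% of all genes. Both are macrophage-associated genes: CD163, at least 3.99-fold higher (adjusted p = 1.23e-06), and CD68 (log2 change 1.11, SE 0.20, adjusted p = 3.02e-04). The summed level of the 20 markers on the array was 5.75 to 7.14 times the 75th percentile at D4, 7.52 to 9.34 at D34 ± DMSO and 8.40 to 9.47 at D30 + DMSO. The pericyte marker PDGFRB and the stellate cell marker GFAP were above background on none of these arrays, and PTPRC, the leukocyte antigen CD45, was at -2.77, -3.30, -2.79 and -3.94 at D4 and at -2.78, -2.39, -2.63 and -4.01 at D34 ± DMSO (log2 change 0.25, SE 0.46, adjusted p = 0.768). The part of these markers in the hepatocyte gene counts was not tested.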

How the data were processed

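RNA of HepaRG cultures was hybridized to one-color Agilent arrays, 4 for each of 5 conditions, grouped by the sample titles. The authors deposited Feature Extraction files for each array (version 10.7.1.1 in the file headers, 10.7.3.1 in the labels) with spot intensity values, of which the background-subtracted processed signal was used, and a matrix of log2 values made in GeneSpring. Against the scanner files the matrix was on a log2 scale, shifted by up to 0.102 per array and centred on a baseline per probe. It served as an alternative. The flags for outliers and for signal well above background were those of the deposited files. Their share of spots flagged as outliers and left out was 0.700%, which left 223 genes with a missing value.

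Intensities were scaled to the 75th percentile of each array, brought to a common percentile of 546.2 units, floored at 1 unit and taken as log2. Between 61.1% and 74.2% of the spots of an array were well above background. Kept were 26531 of 42405 probes, those so flagged on each of the 4 arrays of some condition. A gene was represented by its probe with the highest mean (3703 of 22214 genes had more than 1), and probes were named through RefSeq accessions for 24826 probes. The other 17579 probes kept the name of the array design. The number of arrays limits the precision.

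Conditions were compared in R 4.3.3 with limma 3.58.1 (lmFit and eBayes) in a single fit of the 20 arrays, with Benjamini-Hochberg adjustment over all genes. A gene was called at more than 2-fold with an adjusted p below 0.005, the thresholds of the study's methods. The procedure was tested on simulated data. Named were preset marker genes of each list, the largest called rise and fall of a list, and the 8 largest rises and falls over all genes without overlap. Some genes that this rule names are not reported here. Further genes are said to have been chosen after their values were seen, or stand as examples of a list. The members and lists were chosen with earlier results of these data known. Alternatives were the scaling, quantile normalization, normexp with an offset of 50, the authors' matrix, a floor of 10, filters on dim probes, slide or replicate number as a block, the 8 arrays alone, the methods' t-test, a threshold of 0.05 and leaving out each array. Promoters came from RefSeq (GRCh38.p14).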

Additional observations from a re-analysis of the deposited data

Results flagged for a closer look

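For 88 genes the 4 arrays of a condition were checked for 1 array that stood apart from the other 3 by Dixon's ratio. It did so in 10 of 173 groups, and chance gives about 1 in 20. Replicate 4 of D34 ± DMSO was above the others for CDKN1A, at -0.0445 with the nearest array at -0.61, and below them for the bile acid enzymes CYP7A1, at -1.99 with the nearest at 0.53, and CYP8B1, at 1.68 with the nearest at 3.43. Replicate 1 of D34 ± DMSO was above the others for CYP3A4, at 0.78 with the nearest at 0.05. Replicate 4 of D4 was above the others for C3, at 5.17 with the nearest at 4.29, for SLC10A1, at -4.32 with the nearest at -5.35, for SOX9, at -3.23 with the nearest at -4.17, and for CYP2C19, at -6.84 with the other 3 at the floor of -9.09. Replicate 1 of D4 was below the others for CCL2, at 1.69 with the nearest at 2.31, and for KRT23, at the floor of -9.09 with the nearest at -6.92. The CYP2C19 and KRT23 values at D4 were not above background.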

How the results depend on the processing

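None of the 61 called genes named turned its direction under any alternative run. Hepatocyte genes called higher numbered 153 to 230 and progenitor genes called lower 13 to 46, and no cell cycle gene was called lower under any of them. Genes called higher fell from 1250 to 798 with normexp background correction, to 791 of 18186 genes with probes well above background on all arrays, and to 513 with the methods' t-test. Genes called lower fell from 647 to 391 with normexp, to 401 with the 8 arrays alone and to 177 with the methods' t-test, under which 13 progenitor genes were called lower in place of 36. The cause was not tested. Leaving out 1 array gave 1102 to 1381 genes called higher, 525 to 792 lower, 214 to 230 hepatocyte genes, 34 to 46 progenitor genes and 0 to 0 cell cycle genes called lower. MKI67 was the one cell cycle gene called higher, with the slide as a block or without replicate 1 of D4 or replicate 3 of D34 ± DMSO. Of 61 called genes named, normexp lost 10, among them HNF4A (log2 change 0.51), PCK1 (0.94), TAT (0.68) and ITGB3 (-0.85), and the methods' t-test lost 19, at adjusted p of 0.00551 to 0.0598. Quantile normalization, the floor of 10 and no filter on dim probes lost KRT23 alone. Scaling to the array median moved the median of all genes to -0.09 and lost none.

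Replicate numbers were checked as a pairing. Deviations from the condition means correlated between same-numbered arrays of D4 and D34 ± DMSO at 0.058, 0.203, 0.607 and 0.632. The pairs numbered 2, 3 and 4 also shared a slide, so slide and replicate number cannot be told apart in them. The pair numbered 1 did not share a slide. The numbers were not taken to pair the cultures, since no label states that they do. With the replicate block, 1401 genes were called higher and 762 lower, 228 hepatocyte genes higher, 44 progenitor genes lower and 0 cell cycle genes lower. It lost no call of the 61 and added PKM. Replicate 1 of D4 correlated best with replicate 2 of D34 ± DMSO (0.175), and replicate 1 of D34 ± DMSO with replicate 3 of D4, which shared its slide (0.349). The other arrays correlated best with the array of their own number, which also shared their slide. Low genes are limited by the background: for 157 of the rises the probe was well above background on no D4 array.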
